A study of Mus musculus with 4 samples.

Results

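The guanylate-binding proteins (Gbps) are large GTPases that macrophages make in response to interferons. The genes described here are Gbp2, Gbp3, Gbp4, Gbp5, Gbp6, Gbp7, Gbp8 and Gbp9, taken by symbol. They are 8 of the 17013 genes in the deposited table and 8 of its 11 Gbp genes. The other 3, Gbp2b, Gbp10 and Gbp11, are given as paralogs. RNA was measured by sequencing in wild-type bone marrow-derived macrophages from male C57BL/6 mice, grown with M-CSF and seeded on porous inserts. In both groups, artificial necrotic bone fluid (aNBF) was added above the cells for 24 h. Beneath the cells was medium from freeze-thawed abdominal fat. It was taken from the middle layer in the fat control (Con) and from the fatty top layer in the high-fat group (Fat). Each medium had 2 libraries, and the comparison asks how contact with necrotic fat alters the cells. The age of the mice, the number of mice behind a library and whether the libraries came from separate cultures are not given in the sources used here, so p-values measure the spread between these libraries, which may be technical.

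Interferon-gamma acts through its receptor and the JAK kinases, and raises the transcription factor IRF1. Gbp promoters are classical targets of this pathway and also respond to type I interferon. Gbp proteins bind guanine nucleotides, assemble on the membranes of pathogen vacuoles or on bacteria, and act there with a second family, the immunity-related GTPases. They also help to expose bacterial products to the inflammasome caspases. In the RefSeq gene order of the mouse assembly GRCm38.p6, Gbp5, Gbp7, Gbp3, Gbp2b and Gbp2 follow one another on chromosome 3. Gbp8, Gbp9, Gbp4, Gbp10, Gbp6 and Gbp11 follow one another on chromosome 5, and Gbp11 is annotated there as a transcribed pseudogene.

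RefSeq promoter sequences were matched for 4 of the 8 genes (Gbp2, Gbp3, Gbp5 and Gbp7) and for Gbp2b. Gbp4, Gbp6, Gbp8 and Gbp9 had no entry. The interferon-stimulated response element (ISRE), a motif bound by interferon regulatory factors, was searched in the 250 bases before each gene start, on both strands, as GAAA, any 2 bases and GAAA. All 5 genes held it, in 5 of their 6 promoter windows, the exception being the second Gbp3 window. Among all 32851 windows of this length 2.98% held it. The stretches around it are shown because they are a sequence feature that the matched genes share. They are printed on the plus strand of GRCm38.p6, 5′ to 3′, with the ISRE in capitals (read as TTTC, any 2 bases and TTTC on this strand), and all are on chromosome 3.
Gbp2, chr3:142620564-142620653: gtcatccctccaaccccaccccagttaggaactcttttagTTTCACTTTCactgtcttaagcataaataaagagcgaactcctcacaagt
Gbp2b, chr3:142594670-142594759: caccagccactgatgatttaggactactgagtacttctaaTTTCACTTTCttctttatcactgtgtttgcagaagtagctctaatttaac
Gbp3, chr3:142559965-142560043: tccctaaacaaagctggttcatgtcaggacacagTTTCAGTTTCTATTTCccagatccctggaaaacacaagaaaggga
Gbp5, chr3:142496729-142496818: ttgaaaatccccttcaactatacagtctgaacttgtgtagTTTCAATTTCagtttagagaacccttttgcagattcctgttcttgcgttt
Gbp7, chr3:142530243-142530332: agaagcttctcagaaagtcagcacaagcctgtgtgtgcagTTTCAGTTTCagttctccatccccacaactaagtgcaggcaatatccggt
Gbp2 and Gbp2b held the same 10 letters, as did Gbp3 and Gbp7, and in Gbp3 a second ISRE overlapped the first. The first base of the ISRE lay 59 bases before the gene start in Gbp2, 53 in Gbp7 and 45 in Gbp3. In Gbp2b and Gbp5 it lay farther off, at 137 and 165 bases. The composite motif of PU.1 and IRF (GGAA, any 2 bases and GAAA, on both strands) occurred in the Gbp5 window alone among these genes, away from its ISRE, and in 2.30% of all windows. These are matches of letters, and binding was not measured.

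All 8 genes were lower in Fat than in Con. Together they took 0.145% and 0.124% of the reads in Con replicates 1 and 2, and 0.0455% and 0.0242% in Fat replicates 1 and 2. Their summed level was 1344 ± 133.8 CPM in Con and 349.3 ± 153.6 CPM in Fat (SD, n = 2 each), where CPM is the reads scaled to the size of the library. This is a 3.85-fold difference between the means. In bulk RNA, fewer cells of a type and less RNA per cell cannot be told apart.

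Gbp2, whose prenylated protein coats the vacuoles of intracellular parasites, was the most abundant member. In Con it had 643.3 CPM in replicate 1 and 600.2 CPM in replicate 2, and in Fat 178.7 and 94.2 CPM. Both Fat libraries lay far below both Con libraries, and the Con mean was 4.55-fold above the Fat mean. The change from Con to Fat was -2.26 log2 units (SE 0.25, adjusted p = 0.00429 by limma). It stayed between -2.72 and -1.80 when each library was left out in turn.

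Gbp5, which promotes assembly of the NLRP3 inflammasome, had 112.6 and 92.7 CPM in Con and 31.7 and 16.6 CPM in Fat. The lower Con library was still above the higher Fat library by a wide margin. Its change from Con to Fat was -2.15 log2 units (SE 0.26, adjusted p = 0.00514 by limma). Gbp3 had 225.2 and 191.0 CPM in Con against 73.3 and 41.0 CPM in Fat. Its libraries also did not overlap, with a change of -1.92 log2 units (SE 0.23, adjusted p = 0.00514 by limma). Gbp7, whose protein has been tied to delivery of the phagocyte oxidase and of autophagy proteins to vacuoles, had the smallest change of the 8. It was at 179.2 and 151.4 CPM in Con and 72.4 and 44.3 CPM in Fat, so that 35.3% of the Con mean remained in Fat. Its change from Con to Fat was -1.54 log2 units (SE 0.20, adjusted p = 0.00639 by limma).

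The mean TPM of each chromosome 5 member (reads scaled by library size and gene length) was below that of each chromosome 3 member, in Con and in Fat. Gbp4 was at 94.4 and 73.8 CPM in Con and at 29.0 and 12.6 CPM in Fat. Its log2 fold change of -2.12 (SE 0.33, adjusted p = 0.0115 by limma) was the largest fall among the 4 members of this cluster. Gbp6 and Gbp9 encode proteins that, like Gbp2, gather at the Toxoplasma vacuole. Gbp6 was at 62.6 and 48.8 CPM in Con and 23.4 and 10.5 CPM in Fat, and Gbp9 at 61.1 and 47.1 CPM in Con and 24.7 and 11.5 CPM in Fat. The groups did not overlap for either gene, and the log2 fold changes were -1.81 (SE 0.32, adjusted p = 0.017 by limma) and -1.67 (SE 0.31, adjusted p = 0.0196 by limma).

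Gbp8 had 60.1 and 44.5 CPM in Con against 24.6 and 9.88 CPM in Fat. Its change from Con to Fat was -1.72 log2 units (SE 0.36, adjusted p = 0.0292 by limma), the largest adjusted p of the 8. The adjusted p rose to 0.0573 without Con replicate 1, 0.0653 with TPM in place of CPM and 0.116 with DESeq2 on reads recovered from the CPM. Without Fat replicate 2 the log2 fold change of Gbp8 was -1.07. For Gbp9, DESeq2 gave an adjusted p of 0.0516.

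**Figure D1:**
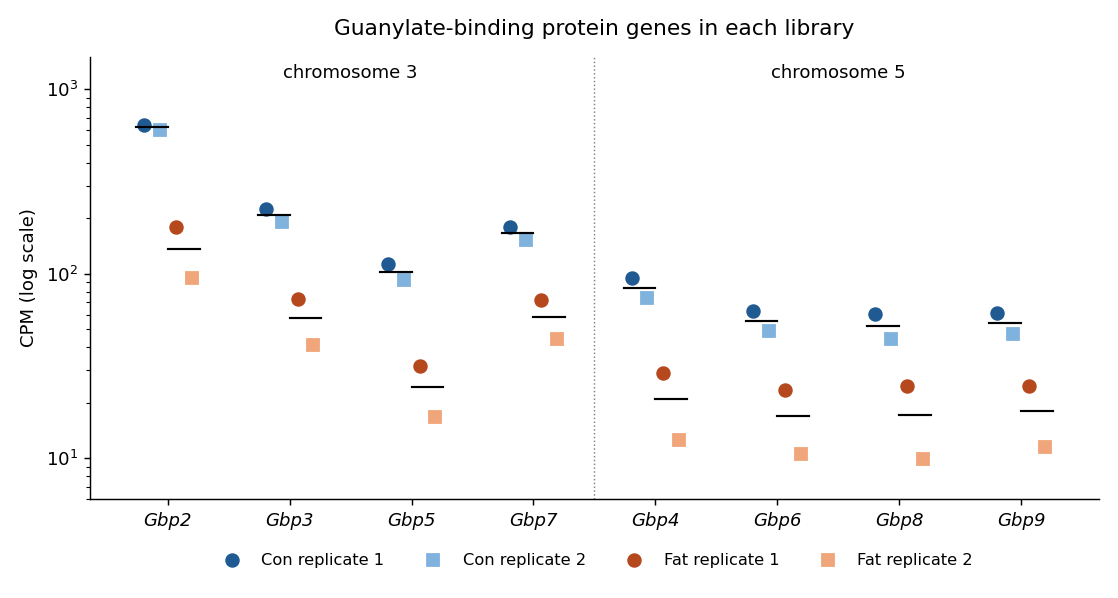
CPM (log scale) of each gene in each of the 4 libraries, with the chromosome 3 genes on the left and the chromosome 5 genes on the right. Points are libraries and black bars are the means of the 2 libraries of a medium. In all 8 genes both Fat libraries lie below both Con libraries, and replicate 2 lies below replicate 1 in each medium.

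The filter on low values asked for 0.5 CPM or more in 2 or more of the 4 libraries. All 8 genes passed it, and all 8 were called lower at an adjusted p under 0.05. Among the 12470 genes tested, 5.0% were called lower, 3.99% higher and 9.0% in either direction. In each of the 8, both Fat libraries lay below both Con libraries, which held for 26.2% of the tested genes, while in 0 of the 8 did both lie above (29.4% of tested genes). The median log2 fold change of the 8 was -1.86, against 0.01 over all tested genes, and all 8 were at -1.5 or lower, as were 0.433% of tested genes. No member was called higher by limma, edgeR's quasi-likelihood test or DESeq2, nor at an unadjusted limma p under 0.05 (0 in each case). With 2 libraries a group, the calls rest on limma's sharing of the spread between genes of like abundance. Without that mean-variance trend 0 of the 8 passed, with adjusted p-values between 0.0831 and 0.165, and an exact two-sided permutation test of a single gene cannot go below p = 0.333.

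The paralogs had lower levels than any member, in CPM and in TPM. Gbp2b was at 4.84 and 2.69 CPM in Con and 1.04 and 0.390 CPM in Fat, from 164, 101, 39 and 16 reads. Its change from Con to Fat was -2.31 log2 units (SE 0.43, adjusted p = 0.0195 by limma). Gbp11 had 210, 147, 64 and 24 reads in the same order, with a change of -2.17 log2 units (SE 0.43, adjusted p = 0.0243 by limma). Gbp10, with 28 and 11 reads in Con and 9 and 6 in Fat, fell under the filter, and its groups did not overlap. Without Con replicate 1 the limma adjusted p was 0.0502 for Gbp2b and 0.0603 for Gbp11. For Gbp11 it was 0.0519 with TPM, and DESeq2 gave 0.0615.

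**Figure D2:**
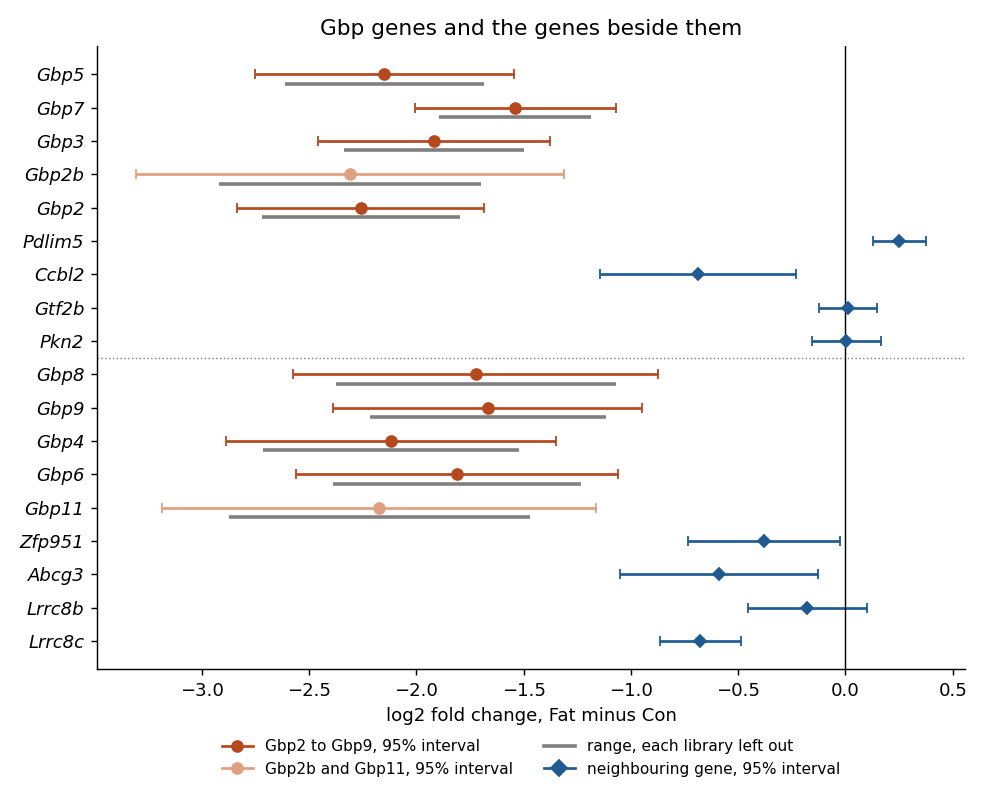
Log2 fold change (Fat minus Con) of the 10 Gbp genes tested and of the protein-coding genes within 250 kb of the ends of each cluster, with 95% limma intervals as bars. Genes of chromosome 3 are above the dotted line and those of chromosome 5 below it, and grey lines give the range with each library left out. Every Gbp interval lies under 0, from -3.30 for the lower limit of Gbp2b to -0.87 for the upper limit of Gbp8. Among the neighbours, the intervals of Lrrc8c, Ccbl2, Abcg3 and Zfp951 also lie under 0, with upper limits of -0.49, -0.23, -0.13 and -0.02. That of Pdlim5 lies above 0, and those of Gtf2b, Pkn2 and Lrrc8b include 0.

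RefSeq places 8 other protein-coding genes within 250 kb of the outermost Gbp genes, and all 8 were tested. Of these, 1 was called lower and 1 higher, against 5.0% and 3.99% of all tested genes. On chromosome 3, Gtf2b and Pkn2 had log2 fold changes of 0.01 and 0.01, and Pdlim5 was called higher (0.25, limma adjusted p = 0.0276). Ccbl2 had a log2 fold change of -0.69 (limma adjusted p = 0.0748). On chromosome 5, Lrrc8c, which encodes a subunit of a volume-regulated anion channel, was called lower (-0.68, standard error 0.08, limma adjusted p = 0.00506). Lrrc8b, Zfp951 and Abcg3 were not called, with log2 fold changes of -0.18, -0.38 and -0.59. A log2 fold change of -1 or lower was found for 0 of the 8 neighbours, for 8 of the 8 members and for 1.12% of all tested genes. The chromosome 3 members together kept 25.2% of their Con level in Fat and the chromosome 5 members 29.7%, and their median log2 fold changes were -2.03 and -1.77.

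Per gene length (TPM), the order of the members in Con was Gbp2, Gbp3, Gbp5, Gbp7, Gbp8, Gbp4, Gbp9 and Gbp6. Gbp2 stood at 549.0 ± 34.5 TPM and Gbp3 at 151.8 ± 19.7 TPM (SD, n = 2 each), and both were clear of the next gene. Gbp5 (73.7 ± 11.1 TPM) overlapped with Gbp7 (63.8 ± 8.45 TPM), and from Gbp8 (46.2 ± 10.4 TPM) to Gbp6 (28.0 ± 5.31 TPM) each gene overlapped with its neighbour in the order. Within each Con library, however, every gene lay above the next one in this order. In Fat, Gbp2 was at 123.2 ± 54.0 TPM and Gbp3 at 42.6 ± 17.0 TPM. Gbp7 came next at 23.0 ± 7.83 TPM, ahead of Gbp5 at 17.7 ± 7.83 TPM, but these overlapped, as did every neighbouring pair below Gbp3. Within each Fat library every gene again lay above the next one in the order for Fat, so the overlaps are between libraries. Among all 17013 genes ordered by TPM, Gbp2 ranked 202nd and 219th in the Con libraries and 849th and 1705th in the Fat libraries. Gbp6, the lowest, ranked 4208th and 5016th in Con and 7320th and 9363rd in Fat.

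The shares of the members in the family were set side by side. Gbp2 made up 54.2% and 57.5% of the summed TPM of the 8 genes in Con and 48.7% and 49.2% in Fat. The share of Gbp7 was 6.59% and 6.34% in Con and 8.61% and 10.1% in Fat, and that of Gbp3 was 15.7% and 15.1% in Con and 16.5% and 17.7% in Fat. By TPM, the Fat shares lay above both Con shares for 5 members (Gbp3, Gbp6, Gbp7, Gbp8 and Gbp9), below them for 2 (Gbp2 and Gbp5), and overlapped for Gbp4. By CPM the shares of Gbp6 and Gbp8 overlapped as well. The within-library log2 ratio of Gbp2 to Gbp7 in CPM was 1.84 and 1.99 in Con and 1.30 and 1.09 in Fat, a difference of -0.72. An exact permutation test of 2 against 2 libraries cannot go below p = 0.333, so these shares and ratios are a description, and whether members changed unequally was not settled.

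**Figure D3:**
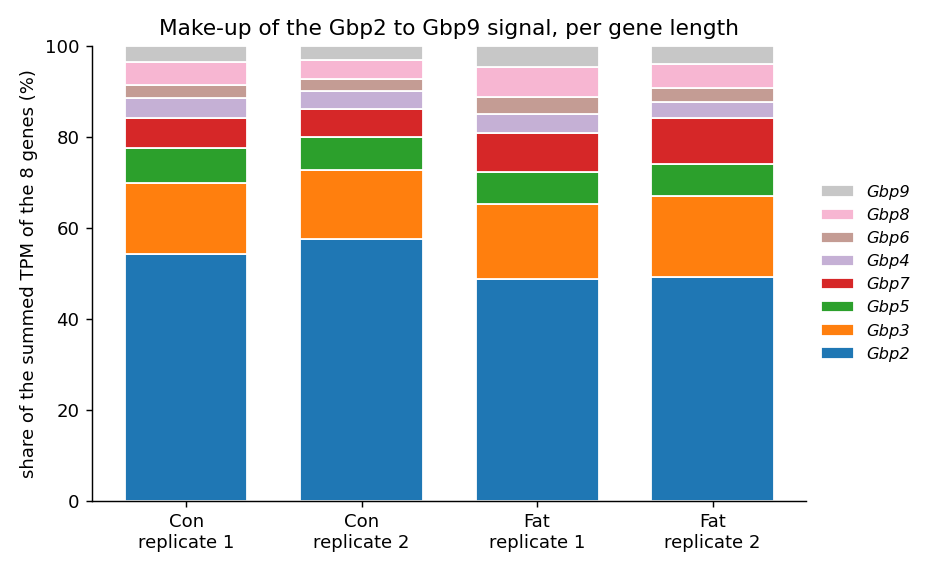
Share of each gene in the summed TPM of the 8 genes, in percent, for each library (stacked bars from Gbp2 at the bottom to Gbp9 at the top). The Gbp2 segment is 54.2% and 57.5% in the Con libraries and 48.7% and 49.2% in the Fat libraries.

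The libraries of one medium also differed in a way the 8 genes shared. In Fat, every member was lower in replicate 2 than in replicate 1, from 61.2% of the replicate 1 CPM for Gbp7 to 40.2% for Gbp8. The median gap of the 8 was -1.01 on the log2 scale, against 0.00 over all tested genes. Gbp8 had the 10th most negative gap of the 12470 tested genes and Gbp7, with the smallest gap of the members, the 106th. In Con, every member was again lower in replicate 2, with a median gap of -0.32, from 93.3% of the replicate 1 CPM for Gbp2 to 73.9% for Gbp8. The 3 paralogs did the same in both media. Being lower in replicate 2 in both media held for 27.9% of all tested genes. Set against the Con library of the same number, Fat replicate 1 held 27.8% of the Gbp2 level and Fat replicate 2 15.7%. For Gbp7 these values were 40.4% and 29.3%, and for Gbp8 40.9% and 22.2%.

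**Figure D4:**
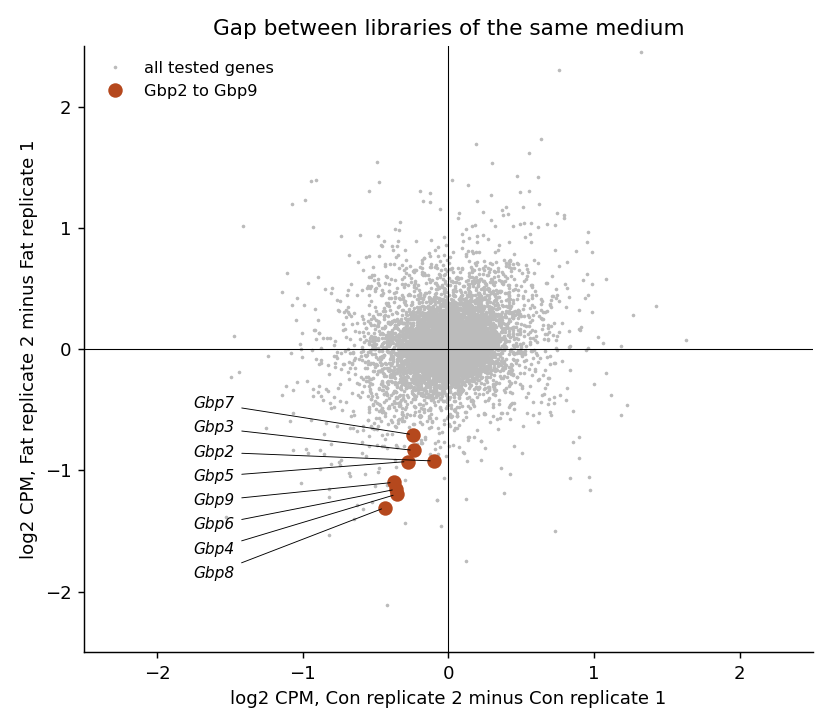
Difference in log2 CPM between the 2 libraries of Con (horizontal) and the 2 libraries of Fat (vertical) for the tested genes, in grey, and for the 8 members, in orange. The members lie together in the lower left, with gaps from -0.10 to -0.44 in Con and from -0.71 to -1.31 in Fat. One tested gene lies outside the axes.

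Reads of near-identical paralogs can be split between them or lost, and how multiply mapped reads were counted is not given in the sources used here. In GENCODE vM21 transcripts, 75-base stretches, the length of the reads, were searched in the transcripts of all other genes with up to 2 mismatches. Of the stretches of Gbp2, 2.33% were found in another gene, all of them in Gbp2b. The share was 3.38% for Gbp5, 5.70% for Gbp3 and 11.8% for Gbp7. On chromosome 5 it was 16.6% for Gbp4, 17.5% for Gbp9 and 29.5% for Gbp8. With no mismatch allowed, the order of these turned, with 8.82% for Gbp7 against 8.40% for Gbp8, 5.03% for Gbp9 and 4.63% for Gbp4. Gbp6 stood apart at 81.1% (71.4% with no mismatch), of which stretches in Gbp10 made up 61.7% of all Gbp6 stretches and stretches in the gene model Gm43302 76.9%. The share was 92.2% for Gbp10 and 44.3% for Gbp11 (76.7% and 13.9% with no mismatch). The values of Gbp6, Gbp10 and Gbp11 are for this reason uncertain as separate genes. Those of Gbp8 are uncertain by its share with up to 2 mismatches, while with none its share was below that of Gbp7. Gbp2, Gbp3 and Gbp5, the members of smallest share under both settings, had log2 fold changes of -2.26, -1.92 and -2.15.

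**Figure D5:**
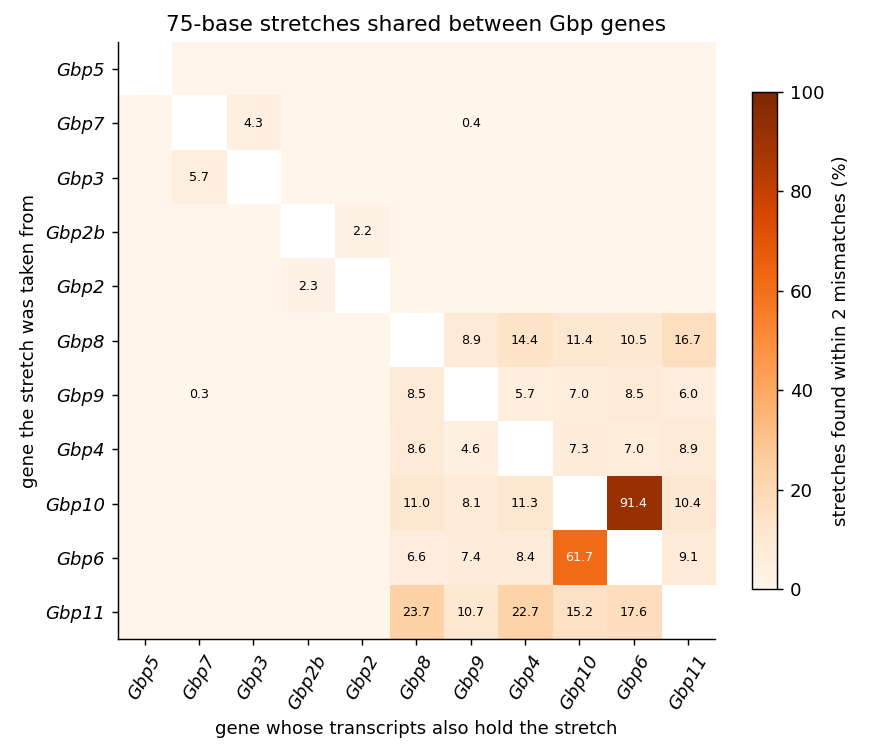
Percent of the 75-base stretches of one Gbp gene (rows) that were also found, within 2 mismatches, in the transcripts of another (columns), in the order of the genes on chromosomes 3 and 5. The chromosome 5 genes share stretches with one another, most of all Gbp10 with Gbp6 (91.4%), and almost none with the chromosome 3 genes.

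The pathway above and around the Gbps was read from lists made with earlier results of these data known. The shares to set beside the counts of each list are those over all tested genes, 5.0% called lower and 3.99% higher. Of 16 tested genes of interferon receptors and signalling, 7 were called lower and 0 higher (10 and 0 at an unadjusted limma p under 0.05), with a median log2 fold change of -0.26. The 7 became 4 without Con replicate 1 and 3 with TPM. Irf1, the factor that drives Gbp transcription, had a change of -0.86 log2 units (SE 0.10, adjusted p = 0.00447 by limma). Irf8, another interferon regulatory factor (-0.48, adjusted p = 0.00825 by limma), and the feedback inhibitor Socs1 (-1.02, adjusted p = 0.017) were called lower as well. The receptor chains Ifngr1 and Ifngr2 were not called, with log2 fold changes of 0.06 and -0.18. Ifng, the gene of interferon-gamma itself, had 13 and 17 reads in Con and 4 and 4 in Fat, under the filter on low values. Without a filter its log2 fold change was -1.35 (limma adjusted p = 0.0322). The 0.1 CPM added before the log makes this value too small, as the Ifng means were 0.418 CPM in Con and 0.102 CPM in Fat.

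Since T and NK cells are the usual source of interferon-gamma, their markers were read beside it. The 8 markers summed to between 16.1 and 19.4 CPM in Con and between 12.3 and 13.0 CPM in Fat. Most of this sum was Cd4, at 11.5 and 9.68 CPM in Con and 8.06 and 8.17 CPM in Fat, so the sum says little about the other markers. Of the 6 tested markers, limma called 0 (3 lower at an unadjusted p under 0.05), and edgeR and DESeq2 called 0. In 5 of the 6, both Fat libraries lay below both Con libraries, as they did for 26.2% of all tested genes. Of the CD3 chains, which define T cells, Cd3g had 80 and 69 reads in Con and 42 and 49 in Fat (-0.79, adjusted p = 0.0593 by limma). Cd3d had 54 and 41 reads in Con and 27 and 30 in Fat (-0.78), and Cd3e 30 and 34 in Con and 28 and 16 in Fat (-0.62). These 3 chains were not called, and none of the markers was at 0 in all libraries. The other tested markers had smaller log2 fold changes, -0.41 for Nkg7, -0.38 for Cd4 and -0.27 for Klrb1c, whose libraries overlapped. The median of the 6 was -0.52. Ncr1 and Cd8a fell under the filter. The part of these cells in the Gbp and Ifng values was not tested. Of 9 adipocyte markers 3 were tested, and limma called Cidec and Plin4 higher. Fabp4, which macrophages also express, was at 189.2 and 208.4 CPM in Con and 180.0 and 175.5 CPM in Fat. The other 8 had at most 0.0885 CPM in a Con library, and the mean of each was higher in Fat, where Cidec was at 1.80 and 1.15 CPM and the defining gene Adipoq at 28 and 14 reads (0 in each Con library). All 7 macrophage markers in the table were detected, with a median log2 fold change of -0.21. In 5 of the 7 both Fat libraries lay below both Con libraries (26.2% of all tested genes), and 2 were called lower, Fcgr1 (-0.88) and Mertk (-0.31). Lyz2 (-0.41), Csf1r (-0.21), Cd14 (-0.15), Itgam (0.07) and Cd68 (0.09) were not called, and the 7 summed to 32779 to 34746 CPM in Con and 25918 to 27440 CPM in Fat. The eighth listed marker, Adgre1, was not found under that symbol. Of the tested markers of neutrophils (5), B cells (4), dendritic cells (1) and endothelium (2), limma, edgeR and DESeq2 each called 0, and 2 neutrophil markers were lower at an unadjusted limma p. Of 4 fibroblast markers limma called 1 lower, Dcn.

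The immunity-related GTPases, which act with the Gbps at vacuoles, were the next list. Of the 12 symbols listed, 6 were in the table, and the rest were not found under those symbols. Whether the table holds them under other symbols was not examined. All 6 found were called lower, against 5.0% of all tested genes, with a median log2 fold change of -1.47. Iigp1 had a change of -2.01 log2 units (SE 0.21, adjusted p = 0.00379 by limma), Igtp one of -1.39 (adjusted p = 0.00514) and Tgtp2 one of -1.56 (adjusted p = 0.00642). Of the 10 inflammasome and cell death genes that act downstream of Gbps, 5 were called lower and 0 higher (6 and 0 at an unadjusted p), and the median was -0.35. The 5 became 3 with TPM, without Con replicate 1 and without Fat replicate 2. For Il1b, the cytokine matured by the inflammasome, the change was -1.43 log2 units (adjusted p = 0.0076), for the adaptor Pycard -0.42 (adjusted p = 0.0119) and for Casp1 -0.47 (adjusted p = 0.0119).

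The next lists held genes that place Gbps on membranes. Of all tested genes, 5.0% were called lower and 3.99% higher, and a count near those shares says nothing particular about a list. Of 12 genes of the ubiquitin-like conjugation that directs Gbps to vacuoles, 1 was called lower, the ubiquitin ligase gene Trim21 (-0.64, limma adjusted p = 0.0076), and 0 higher (2 and 1 at an unadjusted p). The median of the 12 was -0.04. Of the 5 enzymes of prenylation, which adds the lipid anchor of Gbp2 and Gbp5, 0 were called in either direction by limma, edgeR or DESeq2 (0 lower and 1 higher at an unadjusted limma p), and the median was 0.01. Among 10 related large GTPases, the interferon-induced Mx1 (-1.90, adjusted p = 0.00574) and Mx2 (-1.53, adjusted p = 0.029) were called lower, and 0 were called higher (1 at an unadjusted p). With TPM, 1 of the 2 was called. When the filter asked for a mean of 5 CPM, Mx2 (means of 5.09 CPM in Con and 1.67 CPM in Fat) fell under it and was not tested. The other 8, atlastins, dynamins and mitofusins among them, were not called, and the median of the 10 was 0.03.

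The genes most like the members were found by the distance between their log2 CPM, centred on the mean of the 4 libraries, and the mean centred profile of the 8. Outside the Gbp family the 5 nearest of the tested genes were BC147527, Iigp1, Serpina3g, Usp18 and Gm4951, at distances of 0.21, 0.225, 0.226, 0.252 and 0.258 log2 units over the 4 libraries. Iigp1 is the immunity-related GTPase named above, and Usp18 is a protease that restrains type I interferon signalling. Iigp1 was at 189.5 and 166.8 CPM in Con and 57.5 and 33.6 CPM in Fat. Its likeness in each library follows from how it was chosen. Each member is part of this mean profile, which draws it nearer, so members and outside genes are not compared on equal terms. Of the members, Gbp6 and Gbp3 lay nearest the profile (0.14 each), with no non-Gbp gene nearer. Gbp7 (0.42) and Gbp2 (0.39) lay farthest, with 18 and 15 non-Gbp genes nearer. For Gbp8, Gbp5, Gbp4 and Gbp9, 6, 5, 4 and 3 non-Gbp genes were nearer.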

How the data were processed

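Single reads of 75 bases from 4 libraries (2 Con, 2 Fat, grouped by their titles) were counted on genes by the authors, and the values were deposited as CPM, scaled by library size, and as TPM, also scaled by gene length. The submitters' processing notes name GRCm39. The aligner, annotation and rule for multiply mapped reads are not given in the sources used here. Every CPM value (100%, within 0.01 of a whole multiple) was a multiple of a single read, and totals were between 33573852 and 40785872 reads. Fat was compared with Con by limma 3.58.1 (R 4.3.3) with a mean-variance trend, for 12470 genes, after 0.1 was added to the CPM and log2 taken, two-sided, with Benjamini-Hochberg adjustment. Fold changes on this scale are understated for low genes, and markedly so for genes near the added 0.1 CPM, such as Ifng. Recovered reads were tested with edgeR 4.0.16, which called 8 of the 8 Gbp genes, and DESeq2 1.42.0. On data simulated for 12470 genes, limma found 94% of genes changed by 1 log2 unit, with 11 false calls. Each simulated gene took its spread from the trend with abundance, and no replicate effect was put in. The simulation therefore does not show how calls fare for genes that vary more than the trend or share a replicate gap. Alternatives were adding 1 CPM before the log, dropping the filter or asking for a mean of 5 CPM, TPM, median ratios, a replicate block, no trend and each library left out.

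The members, lists and tests were chosen with earlier results of these data known. Named are the 8 members, their paralogs, the genes within 250 kb of the clusters, the 5 genes nearest in profile and, from each list, up to 3 called genes of smallest adjusted p. Ifng, Ifngr1, Ifngr2 and the named cell type markers were chosen after their values were seen. Sequence stretches were aligned with BWA to GENCODE vM21 transcripts. Promoters are from RefSeq (GRCm38.p6), and since that build differs from the authors' no other coordinates are given.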

Additional observations from a re-analysis of the deposited data

How the results depend on the processing

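All 8 Gbp genes were lower in Fat under each of the 14 alternatives. All 8 were called when 1 CPM was added before the log, when the filter was dropped or raised to a mean of 5 CPM, with median ratio scaling, with edgeR's quasi-likelihood test and with the replicate block. TPM called 7, DESeq2 6, and no mean-variance trend 0. Without the trend the log2 changes were -2.26 (Gbp2), -1.92 (Gbp3), -2.12 (Gbp4), -2.15 (Gbp5), -1.81 (Gbp6), -1.54 (Gbp7), -1.72 (Gbp8) and -1.67 (Gbp9), the same as with it, but not called. Gbp8 was also not called with TPM (-1.69) or DESeq2 (-1.61), nor Gbp9 with DESeq2 (-1.59), and the cause was not tested. Leaving out each library gave between 7 and 8 calls, log2 changes of Gbp8 from -2.38 (without Fat replicate 1) to -1.07 (without Fat replicate 2), and medians of the members from -2.38 to -1.37. Over all genes, the calls lower and higher were 366 with TPM for lower, 12 and 19 without the trend, and from 313 to 612 and from 216 to 519 with a library left out, against 624 and 498. Of the pathway genes 0 were called lower without the trend, and 2 were called higher with the block by limma and 2 by edgeR.

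Same-numbered libraries deviated together (correlation 0.20 over tested genes and 0.339 over the 9760 genes with a mean of 5 CPM or more, which hold all 8 members), but with 2 pairs the labels do not say that a number marks a shared source. With the replicate block limma called 1242 genes lower and 1278 higher, and edgeR 1394 and 1382. Of the interferon signalling genes 11 were then called lower, by either tool, against 7. All 8 members were called under the block in both. The 8 genes held at least 9866 reads in each library. Counting limits Gbp10 most, with 6 reads in Fat replicate 2.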
